A study of Mus musculus with 24 samples.

Results

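Retinoid metabolism and signalling in mouse skin is described here through 9 genes of the 18368 in the deposited expression table: Rdh10, Dhrs9, Aldh1a1, Aldh1a2, Aldh1a3, Cyp26b1, Crabp1, Crabp2 and Rarb. They were chosen by name, for their place in the pathway, with earlier results of these data known. The exception was Aldh1a1, included because it was among the genes with the largest falls on wounding in these libraries, so its wound effect is given as a description with no test. RNA was sequenced from 24 whole-skin libraries of 12 CD-1 mice, an outbred stock, at 7 weeks of age, with 4 mice each at the abdomen, the back and the cheek. Every mouse was wounded at its 1 site by full-thickness excision of 2 mm, and at day 3 gave a wound library and a library of healthy skin taken beside the wound, each by a 2 mm punch. Abdomen and back mice carried a pair of wounds and cheek mice a single wound, so site and wound number cannot be told apart in comparisons with cheek. The unwounded libraries came from mice that were also wounded. The mice were described as matched in age and in the resting phase of the hair cycle. The unwounded cheek library of mouse 4 departed from this, with markers of growing hair follicles (given below).

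Retinoic acid, the active form of vitamin A, is made in the cell in 2 steps. Retinol dehydrogenases such as Rdh10 and Dhrs9 oxidise retinol to retinaldehyde, and the retinaldehyde dehydrogenases Aldh1a1, Aldh1a2 and Aldh1a3 oxidise retinaldehyde to retinoic acid, which Cyp26b1 breaks down. The cellular retinoic acid-binding proteins Crabp1 and Crabp2 hold retinoic acid in the cytoplasm, and retinoic acid receptors such as Rarb, paired with retinoid X receptors, bind DNA and alter transcription when retinoic acid is present. In skin, retinoids are known to influence keratinocyte differentiation, the hair cycle and sebaceous glands.

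Promoter sequences from RefSeq (GRCm38.p6) were matched for 6 of the 9 genes, and 3 are shown: Rarb, known as a direct target of its own ligand, and Crabp1 and Dhrs9, whose RNA was higher in the wound of every mouse. Each is the 250 bases before the annotated start, written 5′ to 3′ on the strand of the gene. Rarb lies at chr14:16575477-16575726 on the minus strand, and its capitals mark a direct repeat of receptor half-sites spaced by 5 bases, at -53 to -37 from the start (chr14:16575513-16575529). Crabp1 lies at chr9:54764498-54764747 on the plus strand, and its capitals mark 5 matches to GGGCGG, 1 of them on the opposite strand. Dhrs9 lies at chr2:69380212-69380461 on the plus strand, and its capitals mark a match to TGANTCA, the letters of AP-1 sites, at -18 to -12.
Rarb: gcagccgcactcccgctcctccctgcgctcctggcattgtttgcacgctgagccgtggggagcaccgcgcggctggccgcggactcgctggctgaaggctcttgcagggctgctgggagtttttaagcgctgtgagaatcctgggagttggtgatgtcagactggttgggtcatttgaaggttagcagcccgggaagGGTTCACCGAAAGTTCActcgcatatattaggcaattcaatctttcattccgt
Crabp1: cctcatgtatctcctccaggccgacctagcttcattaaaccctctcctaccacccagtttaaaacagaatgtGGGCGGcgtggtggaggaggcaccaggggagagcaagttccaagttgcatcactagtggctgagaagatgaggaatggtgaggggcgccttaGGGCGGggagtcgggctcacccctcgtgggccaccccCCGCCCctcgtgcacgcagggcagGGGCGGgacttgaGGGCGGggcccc
Dhrs9: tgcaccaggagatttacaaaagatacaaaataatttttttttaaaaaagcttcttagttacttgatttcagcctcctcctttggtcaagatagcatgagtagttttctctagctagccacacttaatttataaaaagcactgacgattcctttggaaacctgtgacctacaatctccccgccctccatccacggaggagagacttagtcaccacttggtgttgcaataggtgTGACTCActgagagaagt

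Letters were searched on both strands in windows from 250 bases before to 50 after the start, for all 32851 promoters of the RefSeq table. The half-sites searched were the consensus AGGTCA and its variants AGTTCA as well as GGGTCA together with GGTTCA, and the direct repeat with a spacing of 5, which contains 2 of them, was found in 0.0974% of promoters. GGGCGG was found in 35.7% and TGANTCA, which reads the same on both strands, in 7.81%. Of the 7 windows of these genes, for Aldh1a1 has 2 annotated starts, only that of Rarb held the direct repeat spaced by 5 bases, and none held a repeat spaced by 1 or 2. The letters TGANTCA were also present before the first start of Aldh1a1. Such matches describe the sequence and do not show that a factor binds there.

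Values are FPKM, fragments per kilobase of transcript, expressed relative to all mapped fragments, which allow for transcript length and so can be set against each other between genes. In the 12 unwounded libraries, Crabp2 had the highest mean level at 94.3 ± 28.1 FPKM (SD, n = 12), followed by Aldh1a1 at 44.2 ± 18.4, Crabp1 at 29.2 ± 11.9 and Cyp26b1 at 26.8 ± 5.40 FPKM. Rdh10 had 7.78 ± 1.82, Aldh1a3 4.20 ± 2.59, Dhrs9 1.80 ± 0.737, Rarb 1.44 ± 0.632 and Aldh1a2 0.523 ± 0.251 FPKM. Neighbours in this order overlapped between libraries with 1 exception, the gap between Cyp26b1 (17.9 to 32.9 FPKM) and Rdh10 (4.64 to 11.01 FPKM). The binding proteins, Aldh1a1 and Cyp26b1 were thus abundant, while both retinol dehydrogenases, the other retinaldehyde dehydrogenases and the receptor were low.

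**Figure D1:**
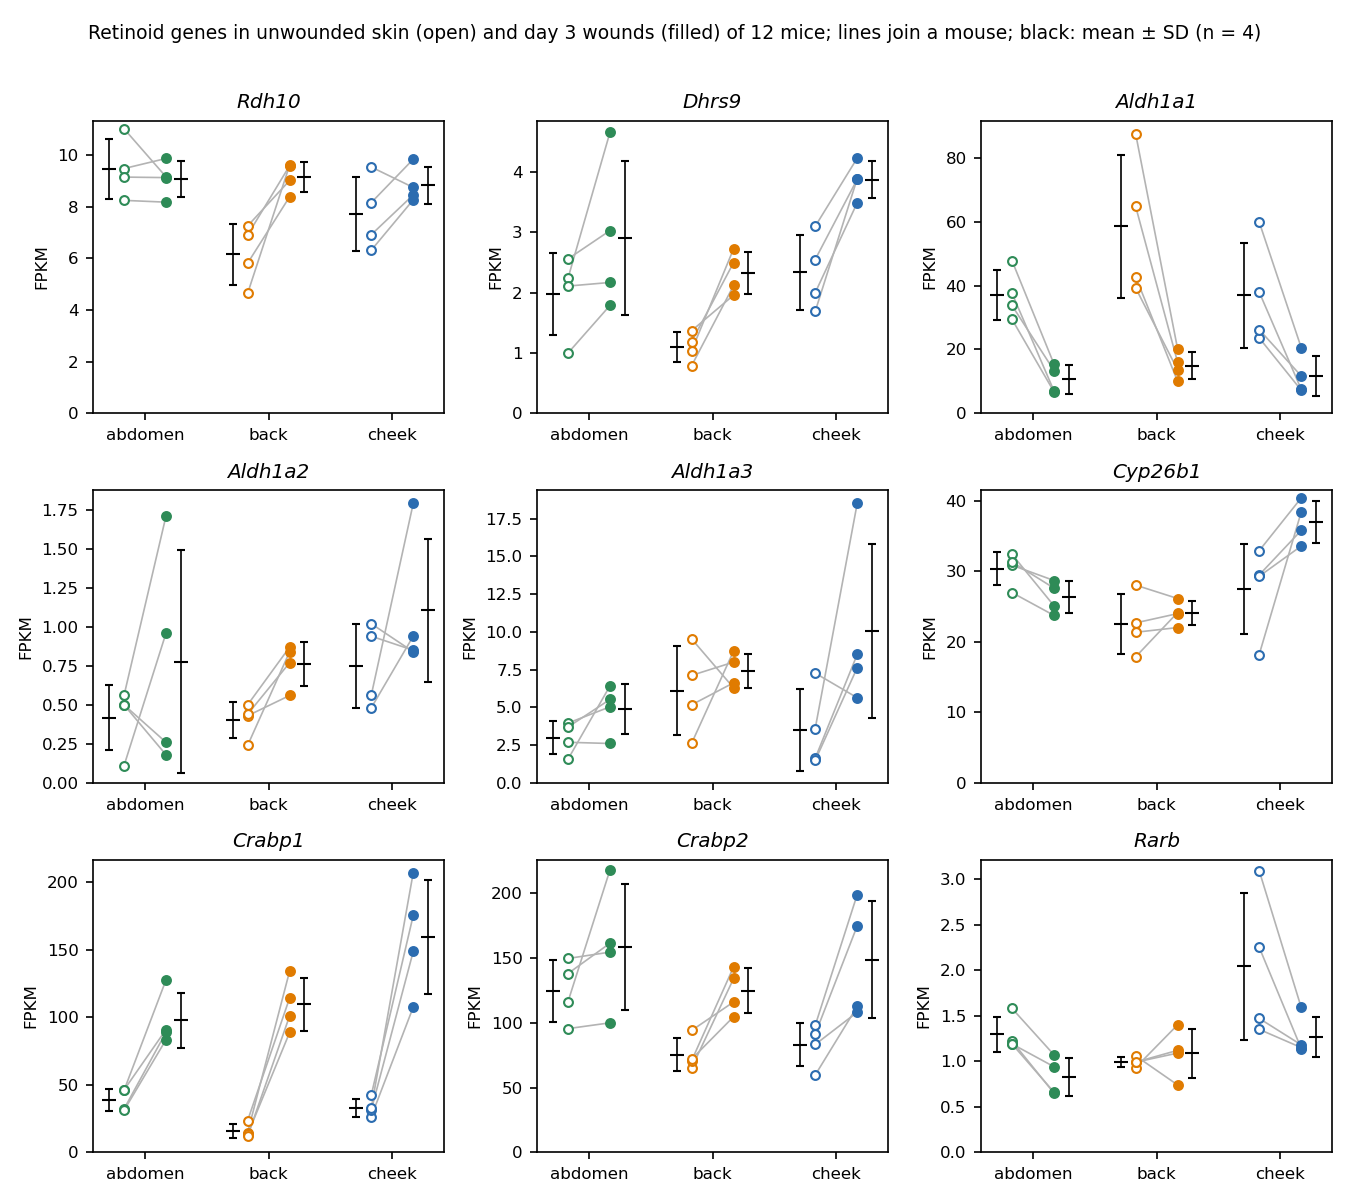
FPKM of each of the 9 genes in every library, by site, with unwounded skin as open and day 3 wounds as filled points, grey lines joining the libraries of a mouse, and black bars for the mean ± SD of 4 mice. Crabp1 was higher and Aldh1a1 lower in the wound of each of the 12 mice, while Cyp26b1 was lower in 4 of 4 abdomen wounds and higher in 4 of 4 cheek wounds.

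The FPKM values of a library summed to between 490830 and 608888. Interfollicular epidermis markers (6 genes, among them Krt5 and Krt14) summed to at least 5396 FPKM in every library, as the labelled tissue would have. The unwounded cheek library of mouse 4 stood apart, with markers of growing hair follicles (6 genes) summing to 4331 FPKM against 1.47 to 71.1 FPKM in the other 23 libraries, so results that rest on it are also given without that mouse. Skeletal muscle markers (6 genes) summed to 397 and 2183 FPKM in unwounded abdomen of mice 2 and 3 and to 9259 to 18104 FPKM in the other 10 unwounded libraries. Between unwounded sites 0 of the 6 were called. Their median log2 difference was nonetheless 2.04 for back and 2.04 for cheek against abdomen, and 0.079 for cheek against back. No library was left out of the values that follow unless it is named.

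Wound effects were estimated in limma as the difference of log2(FPKM + 0.5) between a mouse's wound and its unwounded skin, a scale that understates changes of genes with low values, with Benjamini-Hochberg adjusted p over all 14423 tested genes. All 9 genes passed the filter of 0.5 FPKM in at least 4 libraries. Apart from Aldh1a1, 3 of 8 genes changed in abdomen (Crabp1 and Dhrs9 up, Rarb down), where 32.9% of all tested genes changed at an adjusted p under 0.05. In back, 4 of 8 changed (Crabp1, Crabp2, Rdh10 and Dhrs9, all up), where 45.9% of all genes changed. In cheek, 6 of 8 changed (Crabp1, Crabp2, Dhrs9, Aldh1a3 and Cyp26b1 up, Rarb down), where 36.6% of all genes changed. For the mean of the 3 wound effects, 6 of 8 changed (5 up and 1 down) against 62.7% of all genes. The shares in abdomen, in back and for the mean effect were near those of all genes. The median difference over the 8 genes was 0.33 for abdomen wounds, 0.52 for back wounds and 0.55 for cheek wounds, beside -0.015, 0.066 and 0.012 over all tested genes. As the genes were chosen with earlier results of these data known, these counts and medians are a description and not a test of the pathway.

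**Figure D2:**
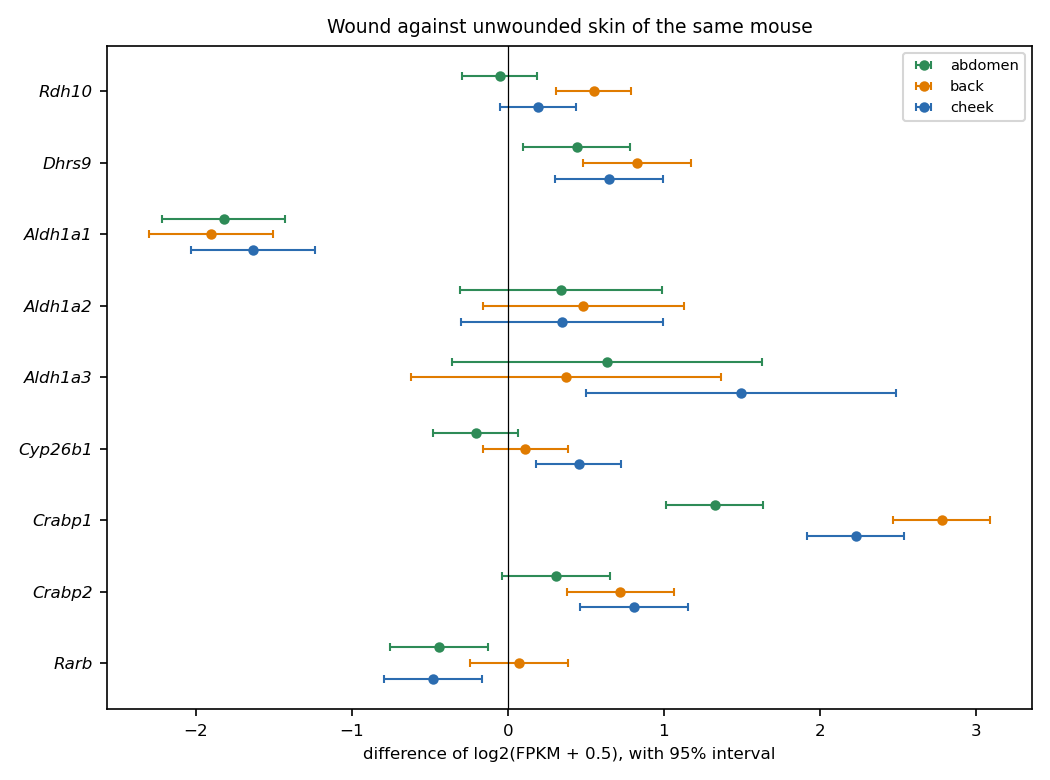
Wound against unwounded skin of the same mouse for the 9 genes, as the difference of log2(FPKM + 0.5) with its 95% interval, by site (4 mice each). Crabp1 lies between 1.33 and 2.78 and Aldh1a1 between -1.90 and -1.64, while the intervals of Cyp26b1 lie around 0 in abdomen and back and above it in cheek.

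Both retinol dehydrogenases of the 9 genes were among those that rose in back wounds. Dhrs9 rose in cheek wounds too, with a call in abdomen that most other fits did not keep. Dhrs9, a short-chain dehydrogenase that can act on retinol, read 2.24, 2.56, 1.00 and 2.11 FPKM in unwounded abdomen of mice 1 to 4 and 4.66, 3.03, 1.79 and 2.17 FPKM in their wounds. In back it read 1.19, 0.79, 1.04 and 1.37 FPKM unwounded and 2.50, 2.12, 2.73 and 1.96 FPKM in wounds, and in cheek 1.69, 2.00, 3.10 and 2.55 against 3.89, 3.49, 4.23 and 3.88 FPKM. The wound was the higher library in 12 of 12 mice, with no overlap between states in back and cheek, where 25% and 16.7% of all tested genes were higher in every wound library than in every unwounded one, and with overlap in abdomen. The difference was 0.44 ± 0.16 (SE) in abdomen (limma, adjusted p = 0.0495), 0.83 ± 0.16 in back (0.00118) and 0.65 ± 0.16 in cheek (0.00719), and over 12 mice an exact sign-change test gave a two-sided p = 0.000488, the smallest it allows. The sign-change test was run for the 8 genes only, so the share of all genes reaching that p is not known. The abdomen call held in only 3 of 12 fits that left out a mouse and in 4 of 9 other settings, with adjusted p up to 0.232 (without abdomen mouse 1) and 0.15, while the back and cheek calls held in all of these.

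Rdh10, the main retinol dehydrogenase of the embryo, read 6.90, 4.64, 5.81 and 7.25 FPKM in unwounded back and 9.58, 9.60, 8.38 and 9.01 FPKM in the wounds of the same mice. Every back wound was above every unwounded back library, as was found for 25% of all tested genes. The rise was 0.55 ± 0.11 (limma, adjusted p = 0.0016), a ratio of group means of 1.49. In abdomen, Rdh10 read 9.47, 11.01, 9.14 and 8.24 FPKM unwounded and 9.86, 9.15, 9.12 and 8.17 FPKM in wounds, and in cheek 6.91, 6.31, 8.15 and 9.53 against 8.45, 8.26, 9.83 and 8.74 FPKM. The states overlapped at both of these sites, with differences of -0.05 (95% interval -0.29 to 0.19, adjusted p = 0.742) and 0.19 (-0.05 to 0.43, adjusted p = 0.191). In the 12 wounds Rdh10 lay within 8.17 to 9.86 FPKM, against 4.64 to 11.01 FPKM in the 12 unwounded libraries.

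Among the retinaldehyde dehydrogenases, Aldh1a1 was the abundant gene of unwounded skin at every site, and it was lower in the wound of every mouse. It read 29.4, 33.8, 37.6 and 47.8 FPKM in unwounded abdomen and 6.74, 13.4, 6.99 and 15.4 FPKM in wounds. In back it read 39.3, 64.8, 42.8 and 87.5 against 13.6, 16.0, 10.0 and 20.2 FPKM, and in cheek 59.9, 38.0, 23.6 and 26.2 against 20.6, 7.53, 7.26 and 11.7 FPKM. The highest of the 12 wounds, at 20.6 FPKM, was below the lowest of the 12 unwounded libraries, at 23.6 FPKM. The wound effect was -1.90 at the back, -1.82 at the abdomen and -1.64 at the cheek, and the mean level in wounds was 0.255, 0.286 and 0.319 times that in unwounded skin. These values chose the gene and are not evidence of their own. In whole skin, fewer cells of a type and less RNA per cell cannot be told apart.

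Fibroblast markers (6 genes, among them Pdgfra and Dcn) summed to 6634 to 17766 FPKM in unwounded skin and to 3970 to 9242 FPKM in wounds, and 4 of 6 fell in abdomen, 3 in back and 2 in cheek, with 1 rising in back and in cheek. Adipocyte markers (5 genes) summed to 426 to 1740 and to 264 to 750.3 FPKM, and 5, 5 and 4 of 5 fell. Skeletal muscle markers summed to a median of 11928 FPKM in unwounded skin and 3445 FPKM in wounds, and 0 of 6 fell in abdomen, 5 in back and 1 in cheek. Neutrophil markers (5 genes) summed to 8.18 to 37.6 FPKM in unwounded skin and to 344 to 2388 FPKM in wounds, where 5 of 5 rose at each site, and macrophage markers (5 genes) to 459 to 1003 and 1020 to 2195 FPKM, with 4, 5 and 5 of 5 rising. The part of these cell types in the lower level of Aldh1a1 was not tested.

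Aldh1a3, a retinaldehyde dehydrogenase found in epithelia, read 3.60, 1.63, 1.49 and 7.27 FPKM in unwounded cheek and 18.5, 8.51, 7.63 and 5.64 FPKM in the wounds. It was higher in the wound of mice 1, 2 and 3 and lower in that of mouse 4, the mouse with the hair follicle library. The rise in cheek was 1.5 ± 0.45 (limma, adjusted p = 0.0246), and 2.11 (adjusted p = 0.00197) without mouse 4, while the call was lost without mouse 1, 2 or 3 (adjusted p = 0.101, 0.108 and 0.0993). In abdomen, Aldh1a3 read 1.57, 3.96, 3.70 and 2.69 against 6.43, 5.04, 5.53 and 2.61 FPKM, and in back 2.62, 5.17, 9.54 and 7.12 against 8.74, 6.63, 6.29 and 8.0 FPKM. The wound was higher in 3 of 4 mice at each site, with overlap between states at all 3. The differences of 0.64 in abdomen (95% interval -0.36 to 1.63) and 0.37 in back (-0.62 to 1.37) did not pass the test (adjusted p = 0.304 and 0.529), and over 12 mice the exact sign-change test gave p = 0.0234, with 9 of 12 mice higher.

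Aldh1a2, the enzyme known for making retinoic acid in embryonic mesoderm, was near the limit of measurement, with 0.11 to 1.02 FPKM in unwounded skin and 0.18 to 1.79 FPKM in wounds. In abdomen it read 0.11, 0.50, 0.50 and 0.56 FPKM unwounded and 0.96, 0.18, 0.26 and 1.71 FPKM in wounds, higher in 2 mice and lower in 2. In back the wounds (0.56, 0.77, 0.84 and 0.87 FPKM) were all above the unwounded libraries (0.43, 0.44, 0.24 and 0.50 FPKM), as was found for 25% of all tested genes. In cheek the wounds (0.84, 0.94, 0.85 and 1.79 FPKM) overlapped with the unwounded libraries (1.02, 0.48, 0.94 and 0.56 FPKM). None of the wound effects, 0.48 in back, 0.35 in cheek and 0.34 in abdomen, passed the test (limma, adjusted p = 0.203, 0.386 and 0.401). Over 12 mice the exact sign-change test gave p = 0.0522, with 8 of 12 mice higher.

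With their levels summed, the 3 retinaldehyde dehydrogenases reached 40.5 ± 8.28 FPKM in unwounded abdomen and 16.3 ± 3.38 FPKM in its wounds, 65.1 ± 23.1 and 23.1 ± 4.85 FPKM in back, and 41.2 ± 16.6 and 22.9 ± 11.4 FPKM in cheek (SD, n = 4 each). Aldh1a1 made up 91.6% ± 2.97 of the sum in unwounded abdomen, 89.6% ± 5.45 in back and 88.8% ± 8.05 in cheek, and 63.1% ± 14.3, 63.9% ± 5.79 and 50.8% ± 7.56 in the wounds. The share of Aldh1a3 was 7.39% ± 2.64, 9.79% ± 5.60 and 9.18% ± 8.15 in unwounded skin and 32.3% ± 15.1, 32.7% ± 5.50 and 43.6% ± 9.54 in wounds. In unwounded cheek the Aldh1a3 share was 5.58%, 4.07% and 5.72% in mice 1 to 3 and 21.4% in mouse 4, the hair follicle library. The Aldh1a1 share there was 92.8%, 94.7% and 90.7% in mice 1 to 3 and 77.0% in mouse 4. In wounds, Aldh1a1 and Aldh1a3 were thus closer in level, most of all in cheek. These shares depend on the fall of Aldh1a1 that chose it and were not tested.

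**Figure D3:**
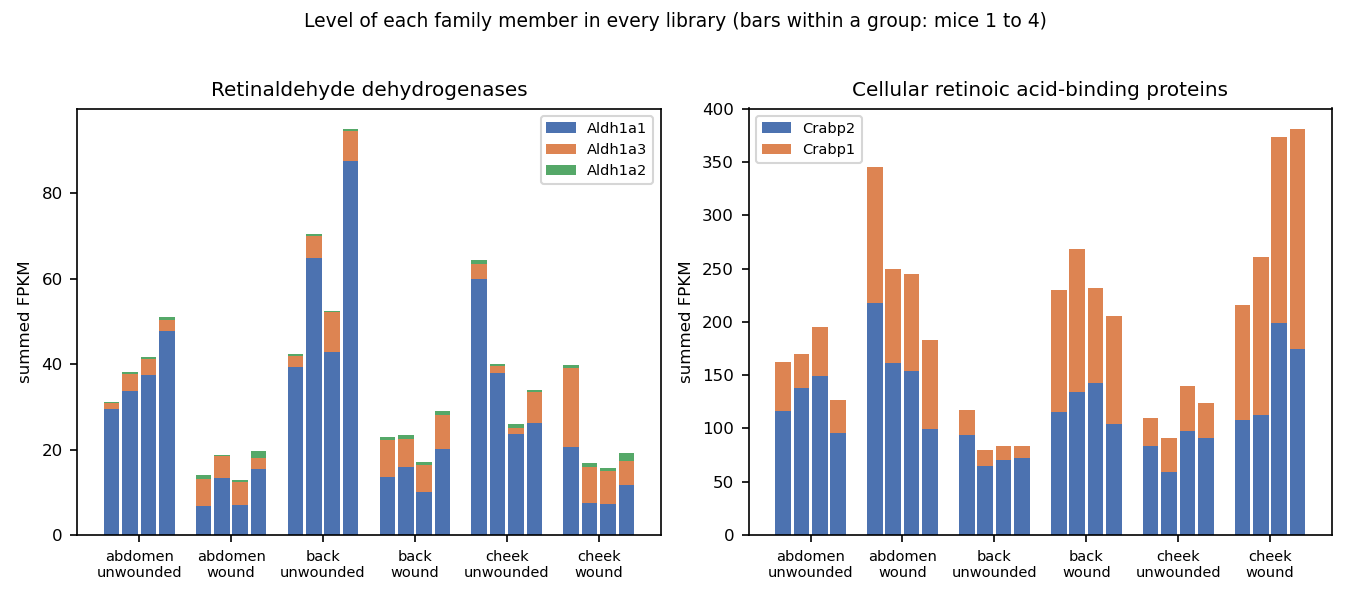
Summed FPKM of the retinaldehyde dehydrogenases (left) and of the cellular retinoic acid-binding proteins (right), with 1 bar for each library, ordered by mouse within a group and divided by gene. Aldh1a1 fills most of each unwounded bar on the left, and on the right the part of Crabp1 is larger in wounds, at 38.8% to 52.0% of the sum on average, than in unwounded skin, at 17.1% to 28.7%.

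Cyp26b1, which removes retinoic acid, was the only gene of the 9 that was lower in the wound of every mouse at 1 site and higher in that of every mouse at another. The share of all tested genes with this pattern was not counted. A moderated F test in limma, given below, called no difference between sites for Cyp26b1 (adjusted p = 0.251). Cyp26b1 read 32.4, 30.9, 27.0 and 31.3 FPKM in unwounded abdomen and 25.1, 28.7, 23.8 and 27.6 FPKM in wounds, lower in 4 of 4 mice with overlap between states. In cheek it read 29.5, 29.3, 32.9 and 18.2 FPKM unwounded and 35.8, 33.6, 40.4 and 38.4 FPKM in wounds, higher in 4 of 4 mice with no overlap. Such non-overlap was found for 16.7% of all tested genes in cheek. In back Cyp26b1 read 28.1, 17.9, 21.4 and 22.7 against 26.2, 24.2, 22.03 and 24.0 FPKM. The rise in cheek was 0.45 ± 0.13 (limma, adjusted p = 0.0138), while the differences of -0.21 in abdomen (95% interval -0.48 to 0.07) and 0.11 in back (-0.16 to 0.38) did not pass the test (adjusted p = 0.227 and 0.493). Without mouse 4, whose unwounded cheek library carried the hair follicle markers and had the lowest Cyp26b1 of the site, the cheek value was 0.25 (adjusted p = 0.057).

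Crabp1, a binding protein, gave the largest rise among the 9 genes at each site. Crabp1 read 45.8, 32.1, 46.2 and 31.0 FPKM in unwounded abdomen and 128, 88.9, 90.9 and 83.4 FPKM in wounds. In back it read 23.5, 14.6, 13.3 and 11.9 against 114, 134, 88.7 and 101 FPKM, and in cheek 26.3, 31.2, 42.2 and 32.7 against 107, 149, 175 and 207 FPKM. Each of the 12 wounds, from 83.4 FPKM upwards, was above each of the 12 unwounded libraries, of which the highest was 46.2 FPKM. The share of all tested genes with this separation was not counted, while 62.7% were called for the mean wound effect. The rise was 1.33 ± 0.14 in abdomen (limma, adjusted p = 4.67e-05), 2.78 ± 0.14 in back (1.01e-07) and 2.23 ± 0.14 in cheek (4.53e-07), with ratios of group means of 2.52, 6.91 and 4.82, and the exact sign-change test over 12 mice gave the smallest p it allows, 0.000488. Crabp1 was also the only one of the 8 genes called at each site at an adjusted p under 0.001, where 4.96%, 14.4% and 8.69% of all tested genes were called in abdomen, back and cheek.

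Crabp2, which is known to pass retinoic acid to its receptors, read 94.0, 65.1, 70.7 and 71.9 FPKM in unwounded back and 116, 134, 143 and 105 FPKM in wounds. In cheek it read 83.1, 59.6, 97.8 and 91.1 against 108, 112, 199 and 175 FPKM, and in abdomen 116, 138, 149 and 95.4 against 218, 161, 154 and 99.8 FPKM. The wound was higher in 12 of 12 mice (exact sign-change p = 0.000488), with no overlap between states in back and cheek and with overlap in abdomen. Such non-overlap was found for 25% of all tested genes in back and 16.7% in cheek. The rise was 0.72 ± 0.16 in back (limma, adjusted p = 0.00291) and 0.81 ± 0.16 in cheek (0.00191), and the difference of 0.31 in abdomen (95% interval -0.03 to 0.66) did not pass the test (adjusted p = 0.151). Crabp1 made up 23.8% ± 3.87, 17.1% ± 2.56 and 28.7% ± 4.53 of the summed level of both genes in unwounded abdomen, back and cheek and 38.8% ± 4.55, 46.8% ± 5.66 and 52.0% ± 4.47 in wounds (SD, n = 4 each).

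Markers of several cell types rose in wounds, among them the neutrophil and macrophage markers given above. Endothelium markers (4 genes) summed to 54.1 to 81.1 FPKM in unwounded skin and to 82.4 to 109.7 FPKM in wounds, and 4 of 4 rose at each site. The wound keratinocyte markers Krt6a, Krt6b, Krt16 and Krt17 summed to 387 to 1285 FPKM in unwounded skin and to 2107 to 14682 FPKM in wounds, and 4 of 4 rose at each site. Interfollicular epidermis markers summed to 5396 to 10168 and to 10095 to 18236 FPKM, and 2 of 6 rose in abdomen and 3 of 6 in back and in cheek, with 1 of 6 falling at each site. The part of any of these cell types in the rises of Crabp1, Crabp2, Dhrs9 and, in back, Rdh10 was not tested.

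Rarb, a receptor whose own gene responds to retinoic acid, fell in abdomen and cheek wounds from a low level. It read 1.22, 1.19, 1.19 and 1.58 FPKM in unwounded abdomen and 0.65, 0.94, 0.66 and 1.07 FPKM in wounds, and in cheek 2.25, 3.09, 1.47 and 1.35 against 1.14, 1.59, 1.18 and 1.15 FPKM. The wound was lower in 4 of 4 mice at both sites, with no overlap in abdomen, where 11% of all tested genes were lower in every wound library, and with overlap in cheek. Rarb fell by 0.44 in abdomen (SE 0.15, limma, adjusted p = 0.0346) and by 0.48 in cheek (SE 0.15, adjusted p = 0.0214). In back it read 0.93, 0.99, 1.06 and 0.99 against 1.40, 1.09, 0.74 and 1.12 FPKM, a difference of 0.07 (95% interval -0.24 to 0.39, adjusted p = 0.706), and over 12 mice 9 were lower (exact sign-change p = 0.0234). The abdomen call was lost without mouse 1, 3 or 4 of that site (adjusted p = 0.111, 0.109 and 0.0831) and in 2 of 9 other settings (up to 0.0657). The cheek call was lost without mouse 1 or 2 (adjusted p = 0.103 and 0.115) and in 1 of 9 other settings (0.0658).

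Whether the wound effects differed between sites was tested for each gene by a moderated F test in limma. It called 0 of the 8 genes at an adjusted p under 0.05, while 0.0208% of all 14423 tested genes were called, and without adjustment 4 of the 8 (Crabp1, Rdh10, Cyp26b1 and Rarb) had a p under 0.05, beside 12.9% of all genes. Crabp1 came nearest, with an adjusted p = 0.0616, and its effect was larger in back than in abdomen by 1.46 (95% interval 1.02 to 1.90) and larger in cheek than in abdomen by 0.91 (0.47 to 1.34). The F test called Crabp1 in 1 of 8 other settings (a pseudocount of 1, adjusted p = 0.0497) and in 2 of 12 fits that left out a mouse (without abdomen mouse 1, 0.022, and without back mouse 1, 0.0318), while the others reached 0.267 without the pairing and 0.22 without abdomen mouse 3. For Rdh10 the back effect was larger than the abdomen effect by 0.61 (95% interval 0.27 to 0.95, F test adjusted p = 0.245), and for Cyp26b1 the cheek effect was larger than the abdomen effect by 0.66 (0.27 to 1.05, F test adjusted p = 0.251). These intervals are not adjusted over genes. In each pairwise difference of wound effects between sites, 0 of the 8 genes were called at an adjusted p under 0.05.

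In unwounded skin, back held less Crabp1 than both other sites. The 4 back libraries, at 11.9 to 23.5 FPKM, lay below the 4 of abdomen, at 31.0 to 46.2 FPKM, and the 4 of cheek, at 26.3 to 42.2 FPKM. Back was lower than abdomen by a log2 difference of -1.29 ± 0.21 (limma over the 12 unwounded libraries and 13956 genes, adjusted p = 0.00903), and cheek was higher than back by 1.07 ± 0.21 (adjusted p = 0.0335). Crabp1 was thus 1 of 9 genes called in each of these pairs, beside 2.67% and 1.05% of all genes, while 0 of 9 were called between cheek and abdomen, beside 2.57%. Here the median difference over all tested genes was itself -0.12 between back and abdomen and 0.14 between cheek and back, and after median-ratio scaling, which removes most of that shift, the Crabp1 values were -1.16 (adjusted p = 0.0188) and 0.93 (0.0565). The cheek against back call was also lost without any 1 of 6 mice (back or cheek 2, 3 and 4), with adjusted p up to 0.107.

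Rarb, Crabp2, Rdh10 and Dhrs9 separated some unwounded sites without passing the test over all genes. Crabp2 was 65.1 to 94.0 FPKM in back and 95.4 to 149 FPKM in abdomen, a difference of -0.72 ± 0.18 (limma, adjusted p = 0.0537), and Rdh10 was 4.64 to 7.25 against 8.24 to 11.01 FPKM, a difference of -0.59 ± 0.16 (0.062). Rarb was 0.93 to 1.06 FPKM in back, below both abdomen (1.19 to 1.58 FPKM) and cheek (1.35 to 3.09 FPKM), and Dhrs9 was 0.79 to 1.37 FPKM in back and 1.69 to 3.10 FPKM in cheek. For each of these pairs and for those of Crabp1 the libraries did not overlap, and an exact permutation test of 4 against 4 gave p = 0.0286, the smallest it allows. In all, 4 of 9 genes were lower in every back than in every abdomen library, beside 10.7% of all genes, and 3 of 9 were higher in every cheek than in every back library, beside 12.4%. After median-ratio scaling these counts were 2 of 9 (Crabp1 and Rdh10, beside 4.79% of all genes) and 3 of 9 (beside 4.35%). The limma adjusted p was 0.435 for Rarb in back against abdomen, and 0.097 for Rarb and 0.108 for Dhrs9 in cheek against back.

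**Figure D4:**
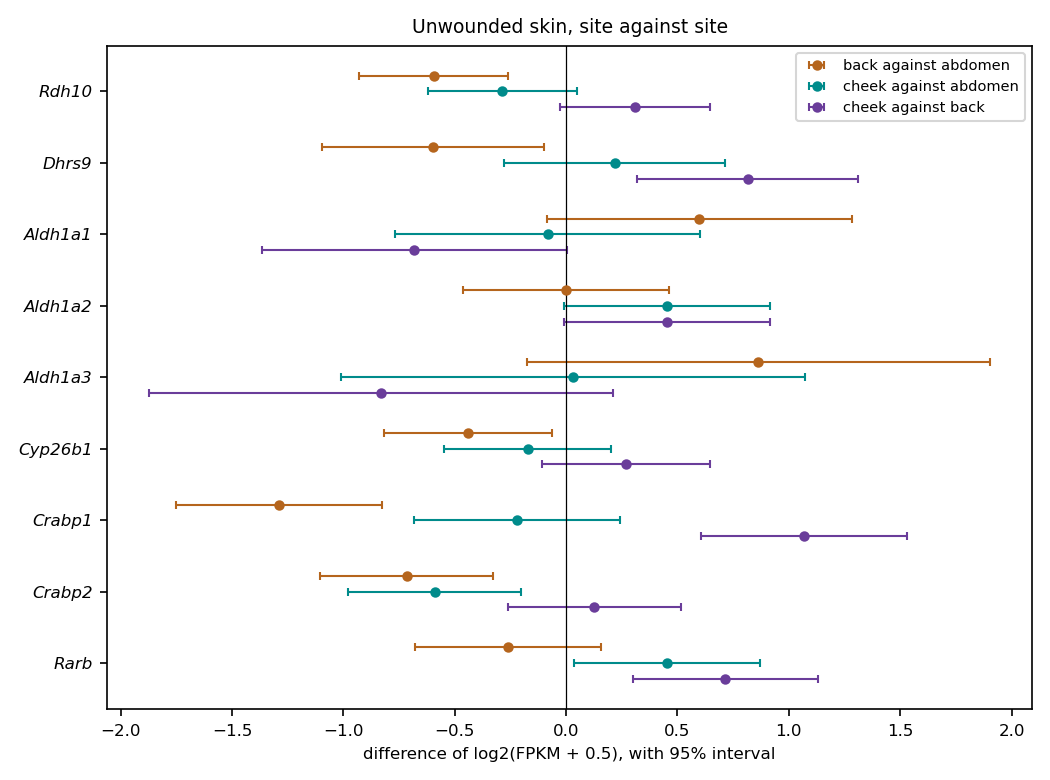
Differences of log2(FPKM + 0.5) between unwounded sites for the 9 genes, with 95% intervals (4 mice per site). Crabp1 lies at -1.29 between back and abdomen and at 1.07 between cheek and back, the only differences plotted that passed the test.

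Aldh1a1 passed the test between no pair of sites, in unwounded skin or in wounds. Its mean was 58.6 ± 22.3 FPKM in back, 37.1 ± 7.84 in abdomen and 36.9 ± 16.5 in cheek (SD, n = 4 each), and back was above abdomen by 0.60 (95% interval -0.09 to 1.28, limma, adjusted p = 0.286). Among wounds, its mean at these sites in the same order was 14.9 ± 4.25, 10.6 ± 4.43 and 11.8 ± 6.21 FPKM, and back was above abdomen by 0.52 (-0.28 to 1.32, adjusted p = 0.545). Aldh1a3 had the widest spread among mice, and its differences between unwounded sites, from -0.83 to 0.86, had intervals that included 0.

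Among the 12 wounds, Cyp26b1 was the gene that set cheek apart. It was 33.6 to 40.4 FPKM in cheek wounds, above the 23.8 to 28.7 FPKM of abdomen wounds and the 22.03 to 26.2 FPKM of back wounds, with no overlap (exact permutation p = 0.0286 for both pairs). The difference was 0.49 ± 0.08 against abdomen (limma over 14023 genes, adjusted p = 0.00811) and 0.61 ± 0.08 against back (adjusted p = 0.00384), and both calls held without cheek mouse 4 (adjusted p = 0.0247 and 0.0194). Crabp1 was called in cheek against abdomen wounds, at 107 to 207 and 83.4 to 128 FPKM, by 0.69 ± 0.20 (adjusted p = 0.0495), but held in only 3 of 9 other settings and in 2 of 12 fits that left out a mouse, with adjusted p up to 0.123. So 2 of 9 genes were called between cheek and abdomen wounds, 1 between cheek and back wounds and 0 between back and abdomen wounds, beside 10.8%, 2.5% and 1.27% of all genes. Rarb was also higher in every cheek than in every abdomen wound (1.14 to 1.59 against 0.65 to 1.07 FPKM, adjusted p = 0.1) and Dhrs9 in every cheek than in every back wound (3.49 to 4.23 against 1.96 to 2.73 FPKM, adjusted p = 0.0929). Such non-overlap in the same direction was found for 13.6% and 17.2% of all genes, and after median-ratio scaling Rarb overlapped between cheek and abdomen wounds.

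A wider list of 46 retinoid genes gave the rest of the pathway, of which 40 passed the filter in the wound comparison. In abdomen 12 rose and 13 fell, in back 13 rose and 9 fell, and in cheek 9 rose and 15 fell, beside 16.9% and 16%, 28% and 17.9%, and 19.7% and 16.9% of all tested genes rising and falling. The median difference over the 40 genes was -0.11, -0.04 and -0.21. There were 13 genes called in 1 direction at all 3 sites, 7 up and 6 down of the 40, beside 12% up and 7.15% down of all tested genes, and the F test called 0 of 40 for a difference between sites.

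**Figure D5:**
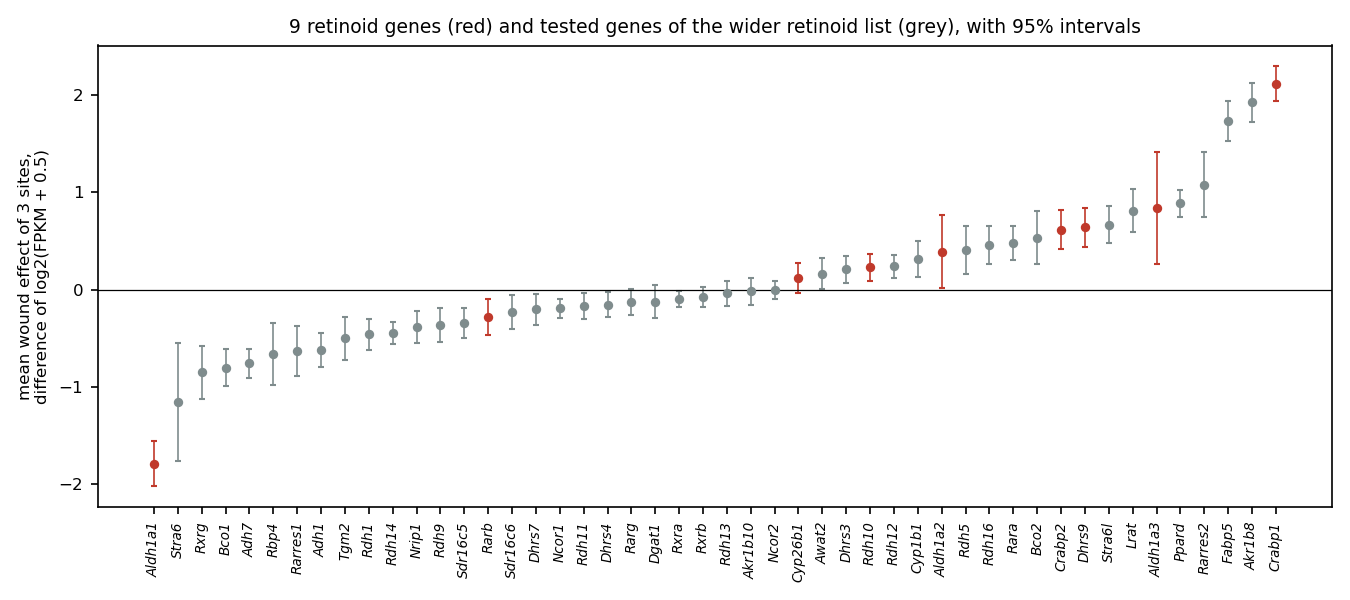
Mean wound effect of the 3 sites for the 9 genes (red) and the tested genes of the wider list (grey, with 1 gene not shown), in order, as the difference of log2(FPKM + 0.5) with its 95% interval. Crabp1 stands at the upper end at 2.11, next to Akr1b8 at 1.92 and Fabp5 at 1.73, and Aldh1a1 at the lower end at -1.79, where it was chosen to be low.

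Among the largest mean rises of the wider list were those of an aldo-keto reductase and a binding protein. Akr1b8, an aldo-keto reductase related to enzymes that reduce retinaldehyde, rose in abdomen from 12.8 ± 1.70 to 40.6 ± 12.8 FPKM, in back from 15.0 ± 0.744 to 61.0 ± 3.05 FPKM and in cheek from 12.6 ± 3.42 to 59.0 ± 13.7 FPKM (SD, n = 4 each). Fabp5, a fatty acid-binding protein that can also carry retinoic acid, rose from 538 ± 52.1 to 2716 ± 249 FPKM in back, where its difference was 2.33 ± 0.17 (limma, adjusted p = 9.18e-07). Rarres2, the gene of chemerin, rose by 1.29 in back, 1.12 in cheek and 0.83 in abdomen (adjusted p = 0.00209, 0.00648 and 0.0308). Crabp1 and Fabp5, which can both carry retinoic acid, thus each rose at all 3 sites.

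Falls were seen for 2 alcohol dehydrogenases that can oxidise retinol and for 1 of 2 carotene-cleaving enzymes of the list. Adh7 fell in abdomen from 29.8 ± 6.46 to 15.0 ± 3.97 FPKM, in back from 18.3 ± 3.67 to 11.2 ± 2.14 FPKM and in cheek from 31.8 ± 5.11 to 20.5 ± 2.59 FPKM (SD, n = 4 each, limma, adjusted p = 0.000128, 0.000752 and 0.00197). Adh1 fell by 0.61, 0.53 and 0.72 on the log2 scale (adjusted p = 0.00633, 0.00862 and 0.00178). Bco1, which cleaves beta-carotene to retinaldehyde, fell by 0.60, 0.83 and 0.99 (0.01, 0.000856 and 0.000362). Bco2, which cleaves carotenoids at another bond, rose in back, from 0.38 to 0.72 FPKM unwounded to 1.06 to 1.48 FPKM in wounds, by 0.74 ± 0.22 (adjusted p = 0.0143), with differences of 0.43 in both abdomen and cheek (0.146 and 0.141), and was named after its values were seen.

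The receptors differed from each other in their wound effects. Rara rose by 0.57 in abdomen and 0.49 in back (limma, adjusted p = 0.00845 and 0.0125), with a difference of 0.37 in cheek (0.056). Rarg, the most abundant receptor at 112 ± 12.1, 91.6 ± 7.94 and 94.4 ± 10.9 FPKM in unwounded abdomen, back and cheek, had differences of -0.04, -0.10 and -0.24, none of which passed the test (adjusted p = 0.805, 0.465 and 0.0833). Rxrg fell by 0.68, 0.87 and 1.00 (0.0289, 0.00582 and 0.00343). Rxra fell by 0.19 in cheek (0.0495), with differences of -0.07 and -0.04 at the other sites, and Rxrb had differences between -0.14 and 0.00, none past the test.

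Between unwounded sites, 38 genes of the wider list were tested. Back differed from abdomen in 9 (1 higher and 8 lower), cheek from abdomen in 5 (2 higher and 3 lower) and cheek from back in 2 (1 higher and 1 lower), beside 2.67%, 2.57% and 1.05% of all genes. Sdr16c5, a retinol dehydrogenase of the epidermis, was 195 ± 38.9 FPKM in abdomen, against 89.5 ± 7.32 FPKM in back and 102 ± 16.7 FPKM in cheek, lower than abdomen by 1.10 in back and 0.92 in cheek on the log2 scale (limma, adjusted p = 0.00413 and 0.0111). Rarres1, named as a gene that responds to retinoids, was 719 ± 192 FPKM in abdomen and 331 ± 21.5 in back (adjusted p = 0.00522). Sebaceous gland markers (5 genes) summed to 1170 to 1779 FPKM in unwounded abdomen and to less in back, at 818 to 946 FPKM. Their sums in cheek, at 805 to 1261 FPKM, overlapped with those of abdomen. Of the 5 genes, 2 were called lower in back and 2 in cheek than in abdomen. The part of sebaceous glands in the differences of Sdr16c5, Rarres1 and Crabp2 was not tested. Adh1 was lower in cheek, at 32.0 ± 7.98 FPKM, than in abdomen at 79.8 ± 17.1 and back at 61.2 ± 3.77 (0.00333 and 0.0238), and Adh7 was higher in cheek than in back by 0.79 (0.0467). Among wounds, back differed from abdomen in 4 (0 higher), cheek from abdomen in 11 (2 higher) and cheek from back in 3 (2 higher), beside 1.27%, 10.8% and 2.5% of all genes.

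The genes whose levels followed each member most closely over the 24 libraries were found by Pearson correlation of log2(FPKM + 0.5), given as a description since the libraries share wounds, sites and mice. Over all libraries, the closest gene was Omd for Aldh1a1 (r = 0.943), Frmd8 for Crabp1 (0.947), Tmem79 for Crabp2 (0.933), Ppp1r15b for Dhrs9 (0.922), Tmem183a for Rdh10 (0.913) and Ccbe1 for Cyp26b1 (0.896). Rarb was closest to Ank2 (0.841), Aldh1a3 to Procr (0.804) and Aldh1a2 to Naip6 (0.735). With the mean of each of the 6 groups subtracted, only the spread among the libraries of a group is left. Crabp2 was then closest to the basal keratin Krt14 (0.916), Dhrs9 to Has2 (0.877) and Aldh1a1 to Bbs4 (0.864). Cyp26b1 and Aldh1a3 were again closest to Ccbe1 (0.822) and Procr (0.809). Among the members themselves, the within-group r was 0.617 for Crabp1 and Crabp2 and 0.592 for Crabp2 and Rdh10. It was -0.562 for Aldh1a1 and Crabp1, -0.631 for Aldh1a3 and Cyp26b1, and -0.654 for Crabp2 and Rarb.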

How the data were processed

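RNA of 24 libraries was sequenced for the authors by a provider (BGISEQ-500, paired-end reads). Per the submitters' processing notes, reads were handled with HISAT2, Bowtie2 2.2.5 and RSEM 1.2.12 on mm10. The authors deposited FPKM values per gene and library, rounded to 2 decimals. A second deposited table, with the fold changes and adjusted p-values of the authors' own comparisons, was not used. FPKM values hold no counts, so that depth and counting error are unknown. 0 per-sample columns were left unused.

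Differences of log2(FPKM + 0.5) were estimated in limma 3.58.1 and statmod 1.5.0 in R 4.3.3 (variance trend, robust), keeping genes that reached 0.5 FPKM in 4 or more of the libraries fitted, with Benjamini-Hochberg adjustment over all tested genes and a threshold of 0.05. Wound effects were fitted over all 24 libraries with mouse as a term, and sites were compared within the 12 unwounded and the 12 wound libraries. The labels give each library a site and a mouse number that recurs at every site. The methods place the wounds of a mouse at a single site, so site and number together were taken as the mouse. Within a mouse, deviations from group means correlated with a mean r of 0.317 (lowest -0.030), against -0.106 for different mice of a site. Scripts were tested on simulated data. Median-ratio scaling, quantile normalisation, other pseudocounts, filters, thresholds and sets of libraries were tried as alternatives.

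The 9 genes and the lists were chosen with earlier results of these data known. From the wider list, the text names the receptors, the 4 largest mean rises and falls among genes called at all 3 sites, and the 2 smallest adjusted p in each pair of unwounded sites, and 1 gene that this rule names is not reported here. Marker lists of 13 cell types were summed in FPKM. Aldh1a3, Crabp2 and Rdh10 had no entry in the promoter table used.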

Additional observations from a re-analysis of the deposited data

Results flagged for a closer look

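Single libraries lay far from the other 3 of their group, by Dixon's criterion for 4 values, in 4 of the 54 groups examined, and chance alone marks about 1 in 20 groups. Aldh1a2 read 0.11 FPKM in unwounded abdomen of mouse 1, the lowest of its group, and 1.79 FPKM in the cheek wound of mouse 4, the highest of its group. Rarb read 1.58 FPKM in unwounded abdomen of mouse 4 and 1.59 FPKM in the cheek wound of mouse 2, each the highest of its group. Both genes were below 4 FPKM in all 24 libraries.

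Cyp26b1 moved one way in every abdomen mouse and the opposite way in every cheek mouse. It was lower in the wound in 4 of 4 abdomen mice and higher in 4 of 4 cheek mice, while in back it was higher in 3 of 4. The share of all tested genes that moved in this way was not counted. The moderated F test of the difference between the wound effects in limma gave an adjusted p = 0.251, so a difference between sites did not pass the correction over all genes, although the unadjusted p was 0.00939.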

How the results depend on the processing

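The number of the 8 genes called for a wound effect was 3 in abdomen, 4 in back, 6 in cheek and 6 for the mean of the sites. With an adjusted p under 0.001, it was 1, 1, 1 and 3. In abdomen it was 1 also when the pairing was dropped (no replicate block, adjusted p = 0.15 for Dhrs9 and 0.0657 for Rarb) and with separate fits of the 8 libraries of each site. The F test called 1 gene with a pseudocount of 1 in place of 0. Between unwounded sites, back against abdomen gave 0 at the threshold of 0.001 and 4 when all 24 libraries were fitted as 6 groups, in place of 1. Cheek against back gave 0 at 0.001, with median-ratio scaling and with a replicate block on the mouse number (Crabp1 adjusted p = 0.0613), and 3 with 6 groups, in place of 1. Between cheek and abdomen wounds, the count of 2 became 0 at 0.001 and 1 with a pseudocount of 0.1, with no filter, with median-ratio scaling, without trend and robustness, with the replicate block on the mouse number and with 6 groups. Cheek against back wounds gave 0 at 0.001, in place of 1. Mice of different sites share a number only (mean r -0.039 for the same number), so that block does not pair animals, and the block on the number changed no other count by more than 1.5 times. Leaving out each mouse in turn gave 1 to 3 genes in abdomen, 4 to 4 in back, 4 to 6 in cheek, 6 to 7 for the mean, 0 to 1 in the F test, 1 to 2, 0 to 1 and 0 to 1 between unwounded sites (back against abdomen, cheek against abdomen, cheek against back) and 0 to 0, 1 to 3 and 1 to 2 between wounds. Alternatives to the exact tests were added after seeing the data. Over 12 mice, the exact sign-change test of Aldh1a2 gave p = 0.0459 with a pseudocount of 1. With median-ratio scaling, the exact permutation test of Aldh1a3 in back against abdomen wounds gave 0.0286, Crabp2 in unwounded back against abdomen 0.0571 and in cheek against abdomen 0.0286, and Rarb 0.0571 in unwounded back against abdomen and in cheek against abdomen wounds. No called value changed its direction under these settings, and the cause of the changed calls was not tested. FPKM values give no depth, and genes below 1 FPKM, as Aldh1a2 mostly was, are the least certain.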
